A study of Mus musculus with 34 samples.

Results

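The genes described here are 9 markers of hippocampal neurons that differ between subfields: Prox1, C1ql2 and Dsp for the dentate gyrus, Calb1 for the dentate gyrus and CA1, Wfs1 and Fibcd1 for CA1, and Pcp4, Amigo2 and Rgs14 for CA2. They were found by symbol, and all 9 are among the 23951 genes listed for every library. RNA from the hippocampus of 20 aged mice was analysed, 1 library per mouse. The control mice (n = 4) were Hdac1f/f, carrying a floxed Hdac1 gene with no Cre. The Hdac1 cKO mice (n = 5) also carried Nestin-Cre, which is active in neural progenitors and deletes Hdac1 in neurons and astrocytes. The 5XFAD mice (n = 6) were Hdac1f/f and carried the 5XFAD transgenes, which cause amyloid pathology and are driven by the neuronal Thy1 promoter. The compound mice (n = 5) were Hdac1f/f with both Nestin-Cre and 5XFAD. Every group therefore carries the floxed Hdac1 alleles, and no group carries Cre without them. Control and Hdac1 cKO mice were 13 to 14 months old, and 5XFAD and compound mice were 13 months old. Another 7 libraries came from cortical GFAP+ nuclei, sorted as nuclei of astrocytes (control, n = 3, and Hdac1 cKO, n = 4).

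The hippocampus passes signals from granule cells of the dentate gyrus to pyramidal neurons of CA3 and on to CA1, with the small CA2 field between CA3 and CA1. Each field keeps its own set of expressed genes in the adult. The marker levels therefore depend on how much of each field a dissected hippocampus holds and on how strongly its neurons express their own genes. Not all markers are confined to their field. In GFAP+ nuclei of the cortex Wfs1 was at least 21.3, Pcp4 at least 195 and Amigo2 at least 6.20 FPKM. In these bulk samples, fewer cells of a type and less RNA per cell cannot be told apart. Calbindin, the product of Calb1, is widely known to be lost from dentate granule cells in mice with amyloid pathology.

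The members lie on 7 chromosomes of mm9, the build of the deposited values, and all are protein-coding in the GENCODE annotation of that build. C1ql2 (chr1:122237159-122239748, forward strand) and Prox1 (chr1:191945660-191994559, reverse strand) are on chromosome 1. Dsp (chr13:38243197-38290446) and Rgs14 (chr13:55471093-55486048) are both on the forward strand of chromosome 13. Fibcd1 is at chr2:31668810-31701525 (reverse), Calb1 at chr4:15808411-15835211 (forward), Wfs1 at chr5:37357343-37380221 (reverse), Amigo2 at chr15:97074505-97077718 (reverse) and Pcp4 at chr16:96689213-96747400 (forward).

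The study asked about guanine-rich promoters in mice without Hdac1, so the members' promoters were searched for the GC-box core GGGCGG on both strands. The RefSeq table (GRCm38.p6, 250 bases before to 50 after each start) holds promoters of 7 members, and names neither Calb1 nor Rgs14. The core was found in 6 of these 7 members, all but Pcp4, and in 35.7% of the 32851 promoters of that length in the table. The Dsp promoter holds 4 copies, Wfs1 4, Amigo2 5, Fibcd1 2, C1ql2 1, and the pair of Prox1 promoters 2 and 1. The stretches below are shown for the dentate gyrus members, which include the only member called between groups, and for Wfs1. Each is 30 bases, 5′ to 3′ on the gene's strand, placed in mm9 by exact match, with the core nearest the start, or its reverse complement, in capitals.
Dsp, chr13:38243106-38243135, before the annotated gene: acgcgggggggaGGGCGGgggaggcgaggc
Prox1, chr1:191994784-191994813, before the annotated gene: ggctggtggcccGGGCGGgggagcgctggg
C1ql2, chr1:122237177-122237206, inside the annotated gene: tgggtaccccctCCGCCCgggaaccagcta
Wfs1, chr5:37380212-37380241, across the annotated gene start: cccgcccaggccCCGCCCcctttcccgggg
A match is a description of the letters in these windows and shows neither binding nor damage there.

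Levels are given in FPKM as deposited, a fragment count scaled by transcript length and by the mapped fragments of the library. FPKM divides by transcript length although these libraries were made from 3′ ends, so levels were compared between mice and not between genes. The study's methods give a mean yield of reads over samples and no depth per library. A rough estimate from genes seen in few libraries put it between 1790000 and 6770000 fragments, well below that mean yield. By group the median estimate was 3650000 in control, 5090000 in Hdac1 cKO, 4785000 in 5XFAD and 2900000 in compound mice. The compound group thus had the lowest median, but its libraries ran from 1790000 in compound 1 to 6490000 in compound 4. At these depths the least covered members in their lowest library had about 20.1 (Amigo2), 23.6 (Prox1) and 26.9 (Dsp) fragments, and Pcp4 had at least 720. In hippocampus the targeted gene separated the groups as labelled, since Hdac1 was 5.91 to 10.7 FPKM in control, 6.10 to 9.64 in 5XFAD, 2.36 to 3.03 in Hdac1 cKO and 1.15 to 2.52 in compound mice. Thy1, whose sequences drive the transgenes, was 303 to 388 FPKM in the 9 mice without 5XFAD and 1563 to 2357 in the 11 mice with it. Summed levels of 9 pan-neuronal genes were between 2055 and 2507 FPKM in all 20 hippocampi.

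Differences were fitted with limma on log2(FPKM + 1), a scale that understates changes of low genes such as Dsp, Prox1 and Amigo2. Called genes passed both thresholds of the study, 1.5-fold or more and an unadjusted limma p under 0.05. For single members an exact permutation p over mice (two-sided, on the same scale) is given beside the adjusted p of limma. The smallest it can give is 0.0159 for 5 mice against 4 and 0.00433 for 6 against 5. All 9 members passed the filter of a mean of 0.5 FPKM in every comparison.

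**Figure D1:**
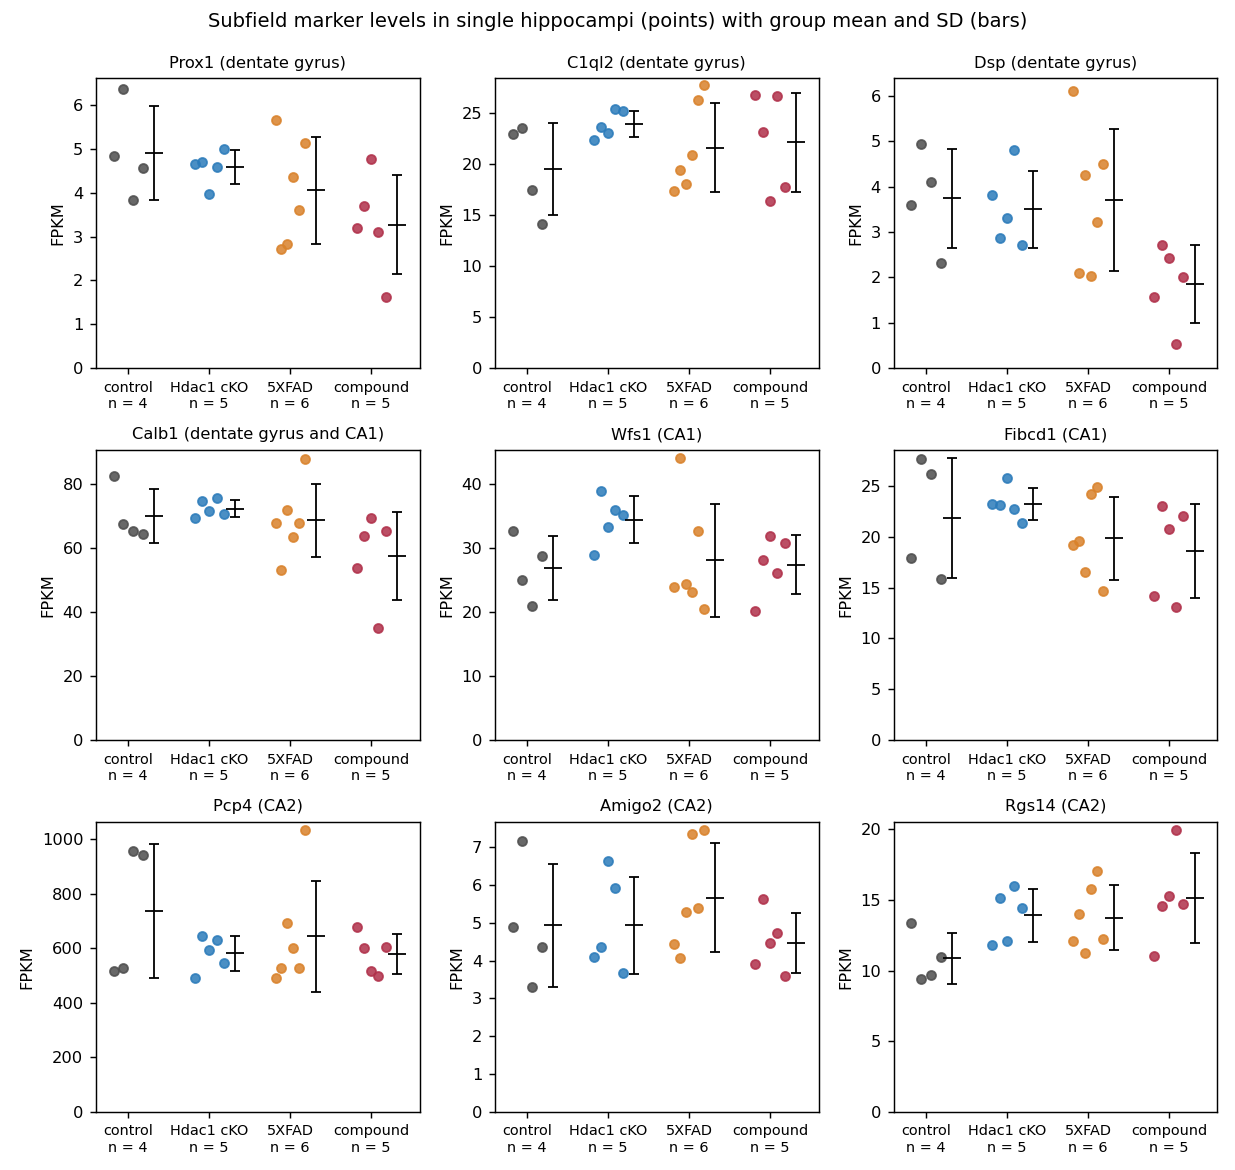
Level of each marker in FPKM (vertical axes, starting at 0) in single hippocampi of the 4 groups (horizontal axes). Points are mice and bars are group means with SD. Dsp lies between 0.54 and 2.72 FPKM in the 5 compound mice, and Pcp4 is at 942 FPKM or above in 2 control mice and 1 5XFAD mouse.

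Among the dentate gyrus markers, Dsp was lower in compound mice than in each of the other groups, while Prox1 had its lowest mean there without a call and C1ql2 did not. Dsp encodes desmoplakin, which links cell junctions to intermediate filaments and in the hippocampus marks granule cells. Its level was 3.59, 4.94, 4.11 and 2.32 FPKM in the 4 control mice. It was 3.82, 2.87, 3.30, 4.81 and 2.71 FPKM in the 5 Hdac1 cKO mice, and 6.11, 2.10, 4.24, 2.02, 3.23 and 4.50 FPKM in the 6 5XFAD mice. In the 5 compound mice it was 1.58, 2.72, 2.43, 0.54 and 2.01 FPKM. The compound mice were the low ones, with compound 4 lowest of all 20, but the range of each other group overlapped theirs, that of Hdac1 cKO only between 2.71 and 2.72 FPKM.

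The mean of Dsp was 1.85 ± 0.85 FPKM in compound mice (SD, n = 5), against 3.74 ± 1.10 in control (n = 4), 3.50 ± 0.85 in Hdac1 cKO (n = 5) and 3.70 ± 1.57 in 5XFAD mice (n = 6). Against control mice the log2 difference was -0.76 (SE 0.27, 95% interval -1.35 to -0.18, exact permutation p = 0.0476, adjusted p = 0.310 over all genes tested). Against Hdac1 cKO it was -0.70 (SE 0.23, exact permutation p = 0.0159, adjusted p = 0.233) and against 5XFAD -0.71 (SE 0.26, exact permutation p = 0.0390, adjusted p = 0.734). These 3 comparisons share the compound mice. Neither Hdac1 loss alone (-0.06, 95% interval -0.48 to 0.36) nor 5XFAD alone (-0.05, -0.59 to 0.49) was called for Dsp. The interaction, the change with Hdac1 loss in 5XFAD mice less that in mice without 5XFAD, was -0.65 (95% interval -1.39 to 0.09, adjusted p = 0.603) and was not called.

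The call on Dsp rested on single mice. Without compound 4 the difference was -0.56 against control, -0.51 against 5XFAD and -0.49 against Hdac1 cKO, each under 1.5-fold and so not called. Without control 2 the difference from control was -0.64, and without 5XFAD 1 that from 5XFAD was -0.58, and neither was called. Choroid plexus genes differed between the same mice: the sum of 10 was 666 to 21458 FPKM in control, 104 to 1721 in Hdac1 cKO, 101 to 8356 in 5XFAD and 102 to 14500 in compound mice. Their most abundant gene, Ttr, which encodes transthyretin, was 576 to 20146 FPKM in control and 58.9 to 13910 FPKM in compound mice, with 13910 in compound 1 and at most 265 in the other 4. Of the 10 genes 10 were called lower in Hdac1 cKO and 7 in compound mice against control, and none in compound against 5XFAD or Hdac1 cKO. Their part in the level of Dsp was not tested.

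Prox1, the homeobox factor that maintains granule cell identity, was 4.84, 6.37, 3.84 and 4.57 FPKM in control and 4.67, 4.71, 3.96, 4.597 and 5.01 FPKM in Hdac1 cKO mice. It was 5.67, 2.72, 2.82, 4.37, 3.62 and 5.14 FPKM in 5XFAD and 3.19, 3.70, 4.76, 3.10 and 1.63 FPKM in compound mice. The groups overlapped, with compound 5 lowest, and the means ran in the order control (4.91 ± 1.07), Hdac1 cKO (4.59 ± 0.38), 5XFAD (4.06 ± 1.21) and compound (3.28 ± 1.13). Neighbours in this order did not differ beyond their spread where they were tested, with -0.07 for Hdac1 cKO against control (exact permutation p = 0.667) and -0.25 for compound against 5XFAD (exact permutation p = 0.316), and Hdac1 cKO and 5XFAD were not tested against each other. Compound mice were below control by 0.49 on the log2 scale (95% interval -0.97 to -0.01, exact permutation p = 0.0635, adjusted p = 0.457), which was not called, and below Hdac1 cKO by 0.43 (exact permutation p = 0.0397, adjusted p = 0.426). Without compound 5 the difference of Prox1 was -0.26 from Hdac1 cKO and -0.087 from 5XFAD. With a pseudocount of 0.1 the difference of Prox1 between compound and control was -0.62 and was called, since Prox1 is low enough for the pseudocount to matter.

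C1ql2 encodes a secreted C1q-like protein that granule cells place at mossy fiber synapses. It was 22.9, 23.5, 17.4 and 14.1 FPKM in control mice and between 22.4 and 25.3 FPKM with Hdac1 cKO, and these groups overlapped through control 1 and control 2. It was 17.3 to 27.7 FPKM in 5XFAD and 16.3 to 26.7 FPKM in compound mice, each range spanning that of Hdac1 cKO. The difference of Hdac1 cKO from control was 0.31 (SE 0.14, exact permutation p = 0.0952, adjusted p = 0.412), below 1.5-fold, and 0.17 without control 4. In compound mice C1ql2 differed from control by 0.17 (95% interval -0.23 to 0.58), and its difference from the change in Dsp was not tested. This value ran from 0.036 without control 4 to 0.27 without compound 3, and moved by over 1.5 times also without control 2, compound 1 or compound 4.

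A list of 12 other dentate granule cell genes, among them Dock10, Plk5, Tdo2 and Sema5a, was fitted beside the members. Of 11 tested, none was called in any of the comparisons, including compound against control, where their median log2 difference was -0.13 beside -0.007 over all genes tested. Their summed level was 69.7 FPKM in compound 4, below the 73.8 to 112 FPKM of the other 19 mice.

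Calb1 encodes calbindin, a calcium buffer of granule cells and of CA1 pyramidal neurons. It was 82.4, 67.4, 65.4 and 64.3 FPKM in control and 69.2, 74.4, 71.5, 75.6 and 70.4 FPKM in Hdac1 cKO mice. It was 67.7, 53.0, 71.8, 63.4, 67.7 and 87.8 FPKM in 5XFAD and 53.8, 63.8, 69.4, 34.9 and 65.2 FPKM in compound mice. The groups overlapped, and 1 mouse, compound 4, stood below the 53.0 to 87.8 FPKM of all the others.

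The mean of Calb1 was 72.2 ± 2.7 FPKM in Hdac1 cKO, 69.9 ± 8.5 in control, 68.6 ± 11.4 in 5XFAD and 57.4 ± 13.8 in compound mice. The 5XFAD transgenes alone came with a difference of -0.04 (95% interval -0.31 to 0.24), an interval that leaves out a 1.5-fold loss at this age. Compound mice were below Hdac1 cKO by 0.36 on the log2 scale (SE 0.15, exact permutation p = 0.0159, adjusted p = 0.415) and below control by 0.31 (95% interval -0.70 to 0.08, exact permutation p = 0.190), and neither was called. Without compound 4 these differences of Calb1 were -0.20 and -0.15.

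Both CA1 markers, Wfs1 and Fibcd1, had their highest mean in Hdac1 cKO mice, and neither was called in a comparison. Wfs1 encodes wolframin, a protein of the endoplasmic reticulum that is abundant in CA1 pyramidal neurons of the dorsal hippocampus. It was 32.7, 24.95, 21.0 and 28.8 FPKM in control and 28.9, 38.9, 33.2, 36.0 and 35.2 FPKM in Hdac1 cKO mice, overlapping through control 1. It was 23.9, 44.1, 24.3, 23.1, 32.6 and 20.5 FPKM in 5XFAD and 20.1, 28.2, 31.9, 26.1 and 30.8 FPKM in compound mice. 5XFAD 2 was the highest of the 20, and the compound mice overlapped control mice over most of their range.

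The mean of Wfs1 was 34.5 ± 3.7 FPKM in Hdac1 cKO, 28.1 ± 8.8 in 5XFAD, 27.4 ± 4.7 in compound and 26.9 ± 5.0 in control mice. Hdac1 cKO exceeded control by 0.36 (SE 0.13, 95% interval 0.08 to 0.64, exact permutation p = 0.0317, adjusted p = 0.295), and compound mice were below Hdac1 cKO by 0.33 (SE 0.13, exact permutation p = 0.0317, adjusted p = 0.349). Neither reached 1.5-fold. Compound against control was 0.03 (95% interval -0.31 to 0.37), and the interaction for Wfs1 was -0.36 (95% interval -0.87 to 0.14, adjusted p = 0.670), and -0.23 without 5XFAD 2.

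Fibcd1 encodes a membrane receptor that binds acetylated sugars and chitin, and is expressed by CA1 pyramidal neurons. It was 17.9, 27.7, 26.2 and 15.9 FPKM in control, 21.4 to 25.8 FPKM in Hdac1 cKO, 14.7 to 24.9 FPKM in 5XFAD and 14.2, 23.0, 20.8, 13.1 and 22.0 FPKM in compound mice. Every pair of groups overlapped, and compound 4 was lowest of the 20. Hdac1 cKO differed from control by 0.12 (95% interval -0.21 to 0.45), and by -0.017 without control 4. Compound mice were below Hdac1 cKO by 0.34 (SE 0.15, exact permutation p = 0.0556, adjusted p = 0.448) and below control by 0.22 (95% interval -0.68 to 0.24), both uncalled. The difference of Fibcd1 from control ran from -0.35 without control 4 to -0.099 without control 2, and moved by over 1.5 times also without control 3, compound 1 or compound 4. Of 7 other CA1 genes, such as Pou3f1 and Spink8, 6 were tested and none was called in any comparison. Their sum had its highest mean in control mice (174 FPKM, beside 165 in Hdac1 cKO), with a median difference of 0.06 between Hdac1 cKO and control and of 0.12 between compound and control mice. Spink8, a marker of dorsal CA1, ranged from 51.1 to 185 FPKM over the 20 mice, with low and high mice in every group.

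The 3 CA2 markers had different patterns. Rgs14, a regulator of G-protein signalling that restrains synaptic plasticity in CA2, had its lowest mean in control mice, at 13.4, 9.43, 9.71 and 10.98 FPKM. It was 11.8, 15.2, 12.1, 16.03 and 14.4 FPKM in Hdac1 cKO, 12.1, 14.0, 11.2, 15.8, 17.1 and 12.2 FPKM in 5XFAD, and 11.1, 14.6, 15.3, 19.98 and 14.7 FPKM in compound mice. Control 1 overlapped each of the other groups, and compound 4, lowest for Dsp, Calb1 and Fibcd1, was highest of the 20 for Rgs14.

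The mean of Rgs14 was 10.9 ± 1.8 FPKM in control, 13.7 ± 2.3 in 5XFAD, 13.9 ± 1.9 in Hdac1 cKO and 15.1 ± 3.2 in compound mice. Against control the log2 difference was 0.33 in Hdac1 cKO (SE 0.13, exact permutation p = 0.0635, adjusted p = 0.341), 0.31 in 5XFAD (SE 0.14, exact permutation p = 0.0571, adjusted p = 0.452) and 0.43 in compound mice (SE 0.16, exact permutation p = 0.0317, adjusted p = 0.350). These 3 comparisons share the 4 control mice, and none reached 1.5-fold. Compound mice differed from 5XFAD by 0.12 (95% interval -0.19 to 0.43) and from Hdac1 cKO by 0.10 (-0.21 to 0.41). Leaving out single mice moved these values of Rgs14 from 0.023 and 0.00092 without compound 4 to 0.22 and 0.20 without compound 1, and by over 1.5 times also without 5XFAD 3, Hdac1 cKO 1 or Hdac1 cKO 3.

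Amigo2, a cell adhesion protein enriched in CA2 and CA3 neurons, was 3.30 to 7.17 FPKM in control, 3.66 to 6.63 in Hdac1 cKO, 4.06 to 7.46 in 5XFAD and 3.58 to 5.63 FPKM in compound mice. The group ranges lay over each other, and its differences between 2 groups ran from -0.27 (compound against 5XFAD, 95% interval -0.62 to 0.07) to 0.18 (5XFAD against control). The latter was 0.039 without control 3 and 0.35 without control 2, and moved by over 1.5 times also without 5XFAD 4 or 5XFAD 6. Of 7 other CA2 genes 6 were tested, and 1 call was made in all: Ntf3, the neurotrophin-3 gene, was lower in compound (6.73 FPKM) than in Hdac1 cKO mice (10.3 FPKM), by 0.59 on the log2 scale (SE 0.19, limma adjusted p = 0.225). This lies close to the 1.5-fold threshold of 0.585, and compound 4 had the lowest Ntf3 of its group (3.81 FPKM, against 6.07 to 10.1 FPKM).

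Of 10 CA3 genes, which mark the field between dentate gyrus and CA2, 9 were tested. Coch was lower in Hdac1 cKO (0.849 FPKM) than in control mice (2.50 FPKM), by 0.84 (SE 0.27, limma adjusted p = 0.249), and was the only CA3 call between 2 groups. It was called again in the interaction (0.98, SE 0.44, limma adjusted p = 0.525).

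**Figure D2:**
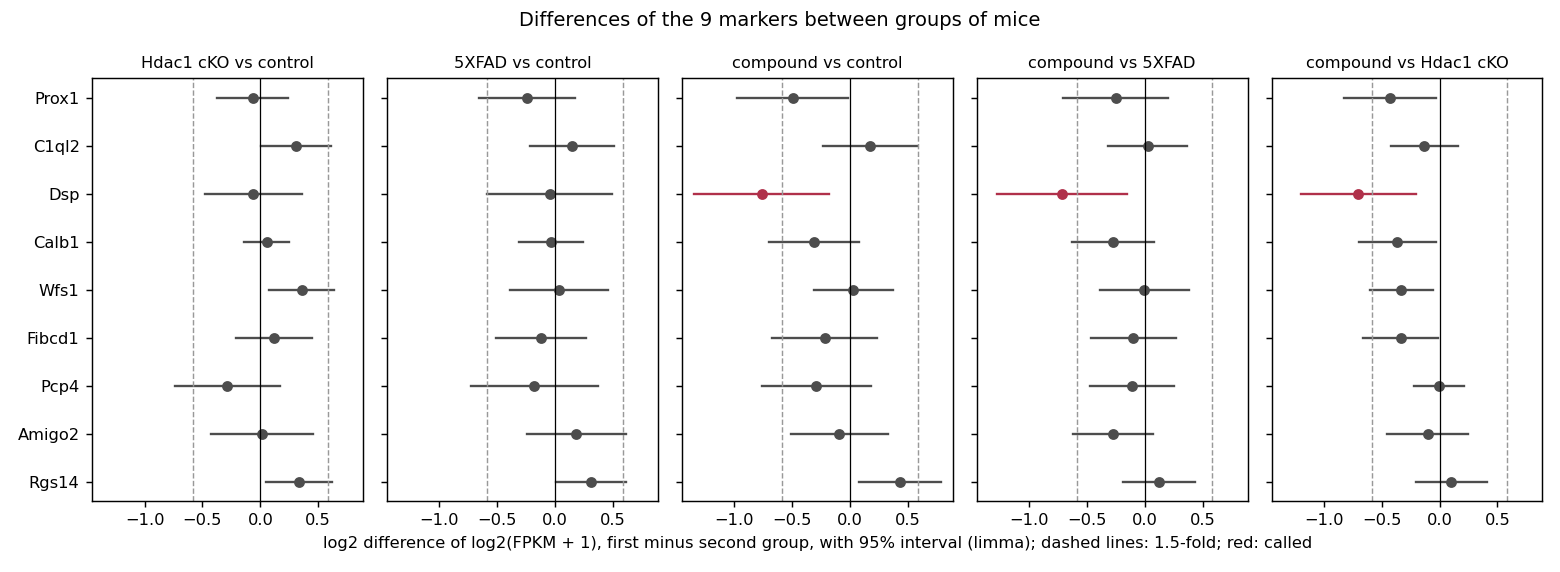
Difference of each marker between groups on the log2(FPKM + 1) scale, first minus second group (horizontal axes), with the 95% interval of the limma fit. Dashed lines mark 1.5-fold and red marks a called gene. Dsp is red in the 3 comparisons of compound mice and no other marker is red.

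Counted over the comparisons, 0 of 9 members were called in Hdac1 cKO against control, where 3.36% of all genes tested were called, and 0 of 9 in 5XFAD against control, where 2.95% were. In compound mice 1 of 9, Dsp, was called against control (4.24% of all genes), against 5XFAD (1.28%) and against Hdac1 cKO (3.55%), and 0 of 9 in the interaction (4.07%). At an unadjusted limma p under 0.05 with no fold threshold, the numbers were 3 of 9 in Hdac1 cKO against control (11.7% of all genes) and 1 of 9 in 5XFAD against control (10.7%). They were 3 of 9 in compound against control (10.5%), 1 of 9 against 5XFAD (6.61%), 5 of 9 against Hdac1 cKO (10.3%) and 0 of 9 in the interaction (8.97%). The 5 members in compound against Hdac1 cKO were Prox1, Dsp, Calb1, Wfs1 and Fibcd1, all lower, and comprised every member of the dentate gyrus and CA1 but C1ql2. They share the same mice, and compound 4 was below the other 19 mice for Dsp, Calb1 and Fibcd1. Without compound 4 these differences were -0.49, -0.20 and -0.23. The exact permutation p was 0.0556 for Fibcd1 and 0.0159 to 0.0397 for the others. The lowest adjusted p of a member in any comparison was 0.233. The median log2 difference of the 9 members was 0.05 in Hdac1 cKO and -0.04 in 5XFAD against control, and -0.22 in compound against control, -0.11 against 5XFAD and -0.33 against Hdac1 cKO, with medians of all genes within 0.01 of 0.

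Among lists of other neuronal genes, none of 9 pan-neuronal genes was called in a comparison. Of 11 activity-regulated genes 1 was called between groups: Arc, an immediate early gene of synapses, was lower in compound (7.03 FPKM) than in Hdac1 cKO mice (11.4 FPKM), by 0.60 (SE 0.22, limma adjusted p = 0.312), and was called in the interaction (-0.60, limma adjusted p = 0.549). Of 8 interneuron genes, Calb2 (calretinin) was lower in Hdac1 cKO (16.7 FPKM) than in control mice (27.8 FPKM), by 0.61 (SE 0.24, limma adjusted p = 0.337).

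Markers of position and of neighbouring tissue differed between the same groups. Of 4 ventral hippocampus genes, Htr2c, a serotonin receptor that choroid plexus also expresses, was called lower than in control (7.72 FPKM) in Hdac1 cKO (4.34 FPKM, limma adjusted p = 0.169), 5XFAD (4.91 FPKM, adjusted p = 0.435) and compound mice (3.98 FPKM, adjusted p = 0.273). Nr2f2 was called lower in compound (7.27 FPKM) than in 5XFAD mice (11.2 FPKM, limma adjusted p = 0.718). Of 10 thalamic genes, 9 of them tested in these comparisons, Tnnt1 and Zic1 were called lower than in control in Hdac1 cKO (by 0.91 and 1.70 on the log2 scale) and in compound mice (by 1.04 and 1.58), with limma adjusted p from 0.197 to 0.303. Among striatal genes, Ppp1r1b was called lower in Hdac1 cKO than in control mice (by 1.08) and Drd1a higher in compound mice than in control (0.68), 5XFAD (0.63) and Hdac1 cKO mice (0.87), with limma adjusted p from 0.0919 to 0.718, and both were called in the interaction. Ppp1r1b was 14.9 FPKM in control 1, the control mouse low in Ttr (576 FPKM). In the other control mice it was 36.4 to 47.2 FPKM, with Ttr at 12903 to 20146 FPKM. Drd1a was 5.22 FPKM in compound 4 and 1.61 to 2.94 FPKM in the other compound mice. None of 2 dorsal hippocampus or 4 neocortex genes was called. The part of RNA from neighbouring tissue in the levels of the members was not tested.

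Microglial genes rose in mice with the transgenes. Of 8 microglial genes 7 were called higher in 5XFAD and 7 in compound mice against control, with adjusted p under 0.05 for 6 in each, for example Trem2 at 84.1 FPKM in 5XFAD, 107 in compound and 16.0 in control mice. The microglial sum was 224 to 311 FPKM in the 9 mice without 5XFAD, 770 to 1087 in 5XFAD and 1009 to 2077 in compound mice. Of 6 astrocyte genes 2 were called in compound mice. Aqp4, the water channel of astrocyte endfeet, was higher there than in control (1.23 on the log2 scale, limma adjusted p = 0.00317), 5XFAD (0.91, adjusted p = 0.234) and Hdac1 cKO mice (0.86, adjusted p = 0.00680), the same 3 comparisons in which Dsp was called lower. Gfap, the filament protein of reactive astrocytes, had means of 25.1 FPKM in control, 27.7 in Hdac1 cKO, 97.5 in 5XFAD and 115 in compound mice, and was called against control in both groups with the transgenes. The astrocyte sum was 750 to 899 FPKM in the 9 mice without 5XFAD, 875 to 1021 in 5XFAD and 974 to 1114 in compound mice. Compound 4 was highest of the 20 for microglia (2077 FPKM), oligodendrocytes (1890 FPKM, against 1008 to 1449 in the other 19 mice), astrocytes (1114 FPKM, against 750 to 1043) and the activity-regulated genes (176 FPKM, against 129 to 155). The part of glial RNA in the levels of Dsp and Calb1 in compound mice was not tested.

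Several markers set single mice apart. Pcp4, a small calmodulin-binding protein of CA2 neurons that is also abundant in the thalamus and the striatum, was 517, 529, 959 and 942 FPKM in control mice. It was 491, 644, 595, 631 and 547 FPKM in Hdac1 cKO, 489, 527, 692, 600, 527 and 1034 FPKM in 5XFAD, and 679, 602, 518, 498 and 606 FPKM in compound mice. Control 3, control 4 and 5XFAD 6 thus had 942 to 1034 FPKM, and the other 17 mice 489 to 692 FPKM.

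These 3 mice also had the highest sums of thalamic markers, but not by the same genes. The sum of 10 thalamic markers was 54.1 FPKM in control 3, 112 in control 4 and 159 in 5XFAD 6, against 29.7 to 49.7 FPKM in the other 17. Tcf7l2, a transcription factor of thalamic neurons, was 16.2 FPKM in control 4 and 20.3 in 5XFAD 6 but 3.44 in control 3, within the 2.47 to 6.44 FPKM of the others. Prkcd, a protein kinase of thalamic relay neurons, was 16.4, 25.1 and 28.5 FPKM in control 3, control 4 and 5XFAD 6, against 3.82 to 14.2 FPKM elsewhere. Of the other markers, Tnnt1 was 50.9 FPKM in 5XFAD 6, 10.04 in control 4 and 4.04 in control 3, against 0.627 to 7.54 FPKM in the 17 mice. Control 3 was above the 17 mice for 2 of the 10 markers, Prkcd and Zic1 (9.96 FPKM, against 0.546 to 4.97), within their range for 6, and below it for Rora (3.65 FPKM, against 3.84 to 6.21) and Synpo2 (0.042 FPKM, against 0.190 to 0.654). The sum of 6 striatal genes was 55.9 FPKM in control 3, above all other mice, 45.0 in control 4 and 35.3 in 5XFAD 6. In the 17 mice it was 17.9 to 50.3 FPKM. Most of this sum was Ppp1r1b, at 47.2, 36.4 and 28.9 FPKM in the 3 mice, while Drd2 and Adora2a were at most 0.24 FPKM there. Ppp1r1b was also high in control 2 (45.5 FPKM) and compound 1 (33.7 FPKM), where Ttr was 17485 and 13910 FPKM. Whether Ppp1r1b came with choroid plexus or with striatal tissue was not tested. The part of thalamic or striatal RNA in the level of Pcp4 was not tested.

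**Figure D3:**
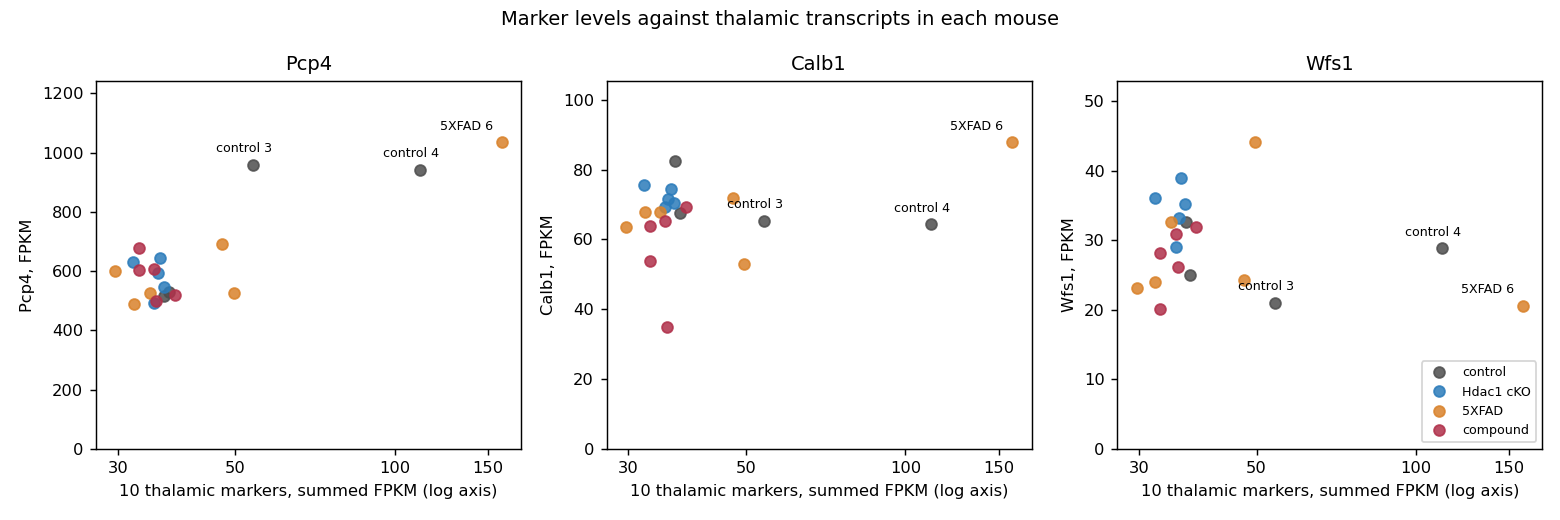
Level of Pcp4, Calb1 and Wfs1 in FPKM (vertical axes) against the summed FPKM of 10 thalamic markers (horizontal log axes), 1 point per mouse, coloured by group. Control 3, control 4 and 5XFAD 6 are highest for Pcp4 and for the thalamic sum, and 5XFAD 6 is highest for Calb1 and near the lowest for Wfs1.

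The mean of Pcp4 was 737 ± 247 FPKM in control (n = 4), 645 ± 204 in 5XFAD (n = 6), 581 ± 63 in Hdac1 cKO (n = 5) and 580 ± 73 in compound mice (n = 5). No difference was called: Hdac1 cKO against control was -0.28 (95% interval -0.74 to 0.17), and -0.14 without control 3, -0.15 without control 4 and -0.43 without control 1. Compound against Hdac1 cKO, groups with none of the 3 mice, differed by -0.005 (95% interval -0.22 to 0.21). The other CA2 members differed among the 3 mice, with Amigo2 at 3.30, 4.36 and 7.46 FPKM and Rgs14 at 9.71, 10.98 and 12.2 FPKM in control 3, control 4 and 5XFAD 6.

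5XFAD 6 also differed in its balance of subfields. Its C1ql2 (27.7 FPKM), Calb1 (87.8) and Amigo2 (7.46) were the highest of the 20 mice, while its Wfs1 (20.5) and Fibcd1 (14.7) were among the lowest. The mean log2 level of the 3 dentate gyrus members less that of the 2 CA1 members was -0.89 in 5XFAD 6, the highest of the 20, and -2.30 in 5XFAD 2, at the other end of the same group. In compound mice this balance was -1.42 to -2.35, in control -1.41 to -1.78 and in Hdac1 cKO -1.64 to -1.93, and its SD was 0.50 in 5XFAD, 0.33 in compound, 0.16 in control and 0.14 in Hdac1 cKO mice, a difference in spread that was not tested. The other lists had the same side for 5XFAD 6: the sum of the other CA1 genes was 83.9 FPKM, below the other 19 mice, and that of the other dentate granule cell genes was 112 FPKM, above them. Its ventral hippocampus sum was 98.4 FPKM, against 43.7 to 96.1 in the 17 mice without control 3 and control 4. Its dorsal sum, which shares Spink8 with the CA1 list, was 54.7 FPKM, against 53.1 to 187 in those mice. The part of dorsal or ventral position in this balance was not tested. Without control 4 and 5XFAD 6, a choice made after seeing the data, the members called were those of the full groups: none in Hdac1 cKO or 5XFAD against control, and Dsp in compound against control (-0.92) and against 5XFAD (-0.66).

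**Figure D4:**
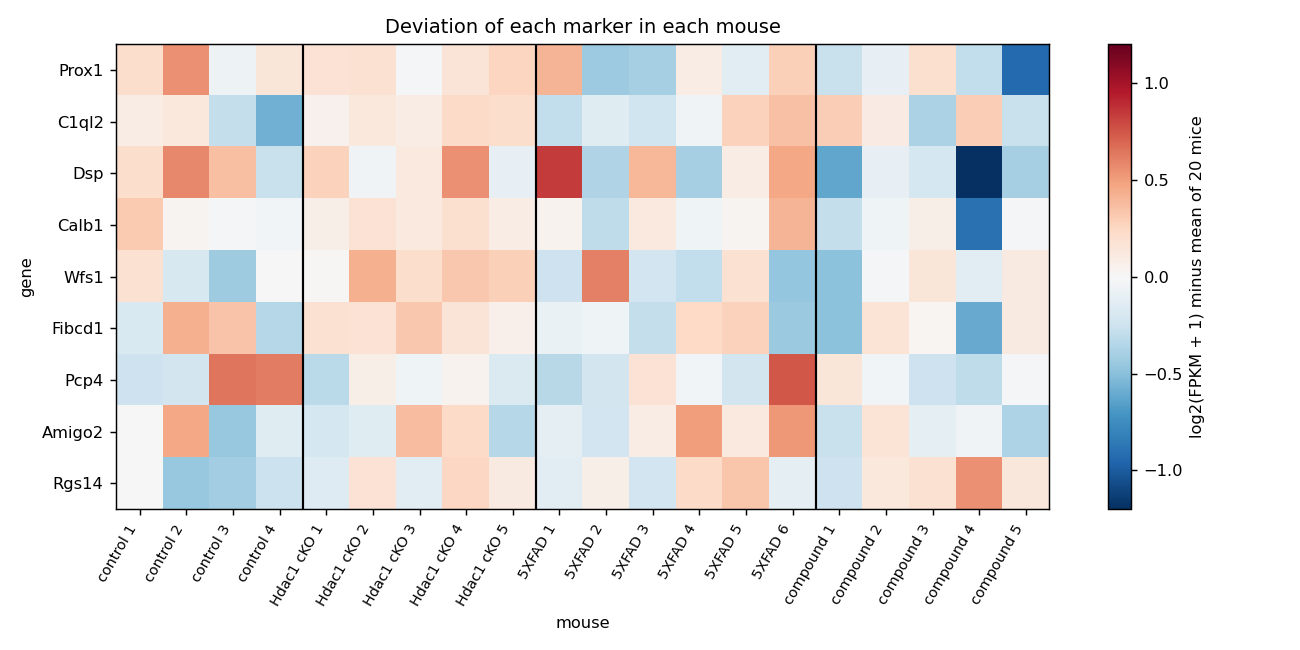
Deviation of log2(FPKM + 1) of each marker (rows) in each mouse (columns, by group) from its mean over the 20 hippocampal mice, with red above and blue below. Compound 4 is the lowest for Dsp and Calb1 and highest for Rgs14, and Pcp4 is red in control 3, control 4 and 5XFAD 6.

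For 8 of the 9 members, all but Amigo2, the levels were least spread in Hdac1 cKO mice. The coefficient of variation over mice was 3.76% for Calb1, 5.48% for C1ql2, 6.85% for Fibcd1 and 8.35% for Prox1 in this group, against 16.6%, 20.2%, 20.5% and 29.9% in 5XFAD and 24.1%, 22.0%, 24.8% and 34.6% in compound mice. In control mice it was 12.1%, 23.2%, 27.0% and 21.7%. For the other members Hdac1 cKO mice had 10.7% (Wfs1), 10.9% (Pcp4), 13.4% (Rgs14), 24.3% (Dsp, beside 29.4% in control) and 25.9% (Amigo2). Amigo2 was less spread in compound (17.8%) and 5XFAD mice (25.3%). The spread itself was not tested. Over all genes Hdac1 cKO mice were also the most alike, with a correlation between mice of 0.970 to 0.976, against 0.965 to 0.970 in control, 0.964 to 0.970 in 5XFAD and 0.965 to 0.972 in compound mice. Hdac1 cKO libraries had the highest median depth of the 4 groups, with 4280000 to 6770000 estimated fragments, and held thalamic sums of 32.1 to 36.6 FPKM.

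The members were also compared with each other between single mice. Over the 20 mice, with group means removed, the highest of 36 correlations between members was that of Dsp with Calb1 (Pearson r = 0.70, permutation p = 0.00734; Spearman rho = 0.65, permutation p = 0.00705; adjusted p = 0.264 over the 36 pairs for Pearson r). It was 0.55 without the 2 mice farthest from the median of Dsp. The next was Wfs1 with Rgs14 (r = 0.54, permutation p = 0.0262; rho = 0.61, permutation p = 0.0105; adjusted p = 0.472), at 0.56 without the 2 farthest mice. Within the CA1 pair Wfs1 and Fibcd1 had r = 0.17 (permutation p = 0.540; rho = 0.16, permutation p = 0.556).

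The genes most like each member over the 20 mice, by Pearson r of log2(FPKM + 1) less the group mean among the 8266 genes whose mean reached 5 FPKM, were mostly no subfield markers. For Calb1 they were Btbd3 (r = 0.88), Sowaha (0.81) and Gng7 (0.80), and for Fibcd1 Ddn, which encodes dendrin of dendrites (0.86), Snph (0.82) and Arhgef25 (0.81). For Pcp4 they were Ctnnb1, which encodes beta-catenin (0.87), Tmem47 (0.81) and Manf (0.77). The remaining members led with Chgb (Prox1, 0.80), Lrrc4 (C1ql2, 0.81), Pum2 (Dsp, 0.79), Etv5 (Wfs1, 0.76), Rpl30 (Amigo2, 0.75) and Ppp1r14b (Rgs14, 0.80). These are the highest of 8266 values for each member and are given as a description.

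In GFAP+ nuclei of the cortex, which hold no hippocampal neurons, 1 dentate gyrus member, Dsp, was at or near 0. It was listed at 0 in 6 of 7 libraries and at 0.09 FPKM in the other, C1ql2 was 0.21 to 2.81 FPKM and Prox1 0.37 to 1.22 FPKM. Fibcd1 was 0.03 to 0.89 and Rgs14 0.57 to 4.04 FPKM. Wfs1 was 21.3 to 25.9 FPKM, Pcp4 195 to 266 FPKM, Amigo2 6.20 to 15.1 FPKM and Calb1 2.31 to 6.63 FPKM. The nuclei held astrocyte markers, with a sum of 1968 to 2560 FPKM for 6 genes, and a pan-neuronal sum of 243 to 357 FPKM. Hdac1 itself was 9.91 to 22.3 FPKM in the control and 5.80 to 11.5 FPKM in the Hdac1 cKO nuclei, so the groups overlapped for the targeted gene, unlike in hippocampus. In the libraries so labelled Wfs1 was 24.3 ± 2.6 FPKM in control (n = 3) and 24.4 ± 1.0 in Hdac1 cKO mice (n = 4), and Pcp4 209 ± 25 and 227 ± 27 FPKM. These libraries were made by another method from nuclei, so their levels were not compared with those of the hippocampus.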

How the data were processed

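RNA-seq values of 27 of the 34 listed samples were used: 20 hippocampi and 7 samples of GFAP+ nuclei. The other 7, namely the HDAC1 ChIP-seq and input samples and control sample 2 of the GFAP+ nuclei, were not analysed here. The authors deposited FPKM values, 1 per gene and mouse; for hippocampus they made 3′ digital gene expression libraries, aligned reads with TopHat and computed FPKM with Cufflinks 2.0.0 on mm9. No normalization between libraries is stated, and none was added. Groups came from the labels. Fits used limma 3.58.1 in R 4.3.3 (mean-variance trend, robust moderation) on log2(FPKM + 1) over genes whose mean reached 0.5 FPKM in the mice compared, with no covariate. Benjamini-Hochberg adjustment ran over all genes tested. The interaction was fitted over all 20 mice. Single members were also compared by two-sided exact permutation of the mice. Correlations used 100000 permutations within groups (two-sided). On simulated data with 200 genes changed by 1.5 on the log2 scale, the fit recovered 97.5% to 100% of them, with 150 to 299 false calls per comparison. The changed genes were drawn from the better expressed ones, and the largest difference of a member was -0.76. Recovery of changes near 1.5-fold was therefore not tested. For compound against 5XFAD there were 162 false calls in the simulation and 184 calls in the data. Python 3.11.15 with numpy 2.4.6, pandas 2.3.3 and scipy 1.17.1 did the rest. Named were the 9 members, list genes called in a comparison, Hdac1 and Thy1, and the 3 genes most like each member. Beyond this rule, some genes of the lists were named as examples after their values were seen. Members and lists were chosen with earlier results of these data known. Alternatives were another pseudocount, filters, scalings, variance models, all groups in 1 fit, a replicate block and leaving out each mouse. Depth in fragments was estimated from the commonest value of 1 fragment among single-transcript genes seen in at most 8 libraries, so no interval was computed. Mice correlated with r of 0.964 to 0.976 within groups, so no library was a copy of another in its group. The p-values measure the spread between these mice, 1 library each. Same-numbered mice of 2 groups did not deviate together (r from -0.11 to 0.08), so the numbers were not taken to pair them.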

Additional observations from a re-analysis of the deposited data

Results flagged for a closer look

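Pcp4 in 5XFAD 6, at 1034 FPKM, stood apart from the other 5 mice of its group (489 to 692 FPKM): its gap to the nearest of them was 0.629 of the group's range, above the critical value of 0.625 in Dixon's test for 6 samples. It was the only one of 44 sets of member values so marked (the 4 hippocampal groups and the GFAP+ nuclei of Hdac1 cKO mice, without Dsp in the latter, which was listed at 0 throughout), and chance marks about 5% of such sets. The thalamic sum of this mouse, 159 FPKM, was the highest of the 20. Whether thalamic RNA accounts for the level of Pcp4 was not tested.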

How the results depend on the processing

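The number of members called was the same under every scaling, filter and variance model tried, with all groups in 1 fit and with the replicate block. With a pseudocount of 0.1, 2 members (Dsp and Prox1) were called in compound against control. Leaving out single mice gave 0 to 2 calls in compound against control (0 without control 2 or compound 4, 2 without compound 3), 0 to 1 against 5XFAD (0 without 5XFAD 1 or compound 4), 0 to 1 against Hdac1 cKO (0 without compound 4) and 0 to 1 in the interaction (Dsp without 5XFAD 2, 5XFAD 4 or compound 2). Dsp kept its sign in these 3 comparisons, from -0.92 to -0.56, from -0.83 to -0.51 and from -0.81 to -0.49. Of 1089 refitted member differences 44 changed sign, all of them of members not called in that comparison.

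The replicate block kept only mice whose number occurred in every group compared, so the differences are those of the remaining mice and the block itself moved none. In this fit the sign differed for Dsp in Hdac1 cKO against control (0.0034), C1ql2 in 5XFAD against control (-0.017), Wfs1 in compound against control (-0.016), Pcp4 in compound against 5XFAD (0.035) and Prox1 in the interaction (0.060), and no call on a member changed. Calls over all genes were 504 in Hdac1 cKO against control (480 with all mice, 500 without Hdac1 cKO 5 alone) and 719 in the interaction (586 with all mice), where the dropped mice and the block cannot be told apart. Mice correlated best with their own number in 0 to 2 of 4 or 5 pairs. Without control 4 and 5XFAD 6 the sign changed for Fibcd1 (-0.017) and Amigo2 (-0.022) in Hdac1 cKO against control, C1ql2 in 5XFAD against control (-0.063) and Pcp4 in compound against 5XFAD (0.035).

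With single mice left out, signs turned in Hdac1 cKO against control for Prox1 (-0.16 to 0.047), Dsp (-0.22 to 0.057), Fibcd1 (-0.017 to 0.24) and Amigo2 (-0.13 to 0.18). In 5XFAD against control they turned for Dsp (-0.21 to 0.070), Calb1 (-0.11 to 0.046) and Wfs1 (-0.10 to 0.13), and in compound against control for Wfs1 (-0.079 to 0.13) and Amigo2 (-0.23 to 0.076). In compound against 5XFAD they turned for C1ql2 (-0.046 to 0.12), Wfs1 (-0.081 to 0.13), Fibcd1 (-0.18 to 0.012) and Pcp4 (-0.18 to 0.035), and in compound against Hdac1 cKO for Pcp4 (-0.065 to 0.048). Where no value above bears on it, the cause was not tested. Depth limits Amigo2, Prox1 and Dsp most, with 20.1 to 26.9 estimated fragments in their lowest library, compound 1. Compound 4, the mouse with the lowest Dsp, had an estimated depth of 6490000 fragments.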
